A study of Mus musculus with 16 samples.

Results

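Long noncoding RNAs (lncRNAs) expressed in mouse jejunal enteroids were analyzed in 4 groups of 4 cultures. The cultures of a group came from 4 mice, and whether groups of the same genotype share mice is not given in the sources used here. A gene was included when the count table classed it as lincRNA, lncRNA, antisense or bidirectional promoter lncRNA, when its mean over the 16 libraries was 2 CPM (counts scaled to the library total) or more, and when it was not on chromosome X or Y. This left 262 of the 54532 genes in the table, out of 8550 genes of these classes. They were thus chosen by their mean level over all 16 cultures, so their level is given as a description and only differences between groups were tested. Mice with Vil1-CreERT2;Myo5b flox/flox gave the MYO5BΔIEC cultures and, by the methods of the study, the controls, which the labels name only as control and a figure legend of the study calls healthy littermates, so their genotype is not certain. Mice with Vil1-CreERT2;Myo5b flox/G519R gave the MYO5B(G519R) cultures, in which the G519R allele is the only one left where recombination is complete. The Vil1 promoter drives the Cre recombinase in intestinal epithelium. Cre was induced with 1 µM 4-OH-tamoxifen for 24 h before the change to differentiation medium. There the MYO5BΔIEC cultures had vehicle for 2 days or, in the fourth group, 100 nM Compound-1, an agonist that prefers the lysophosphatidic acid receptor LPAR5, while the labels give no treatment for control and MYO5B(G519R). The labels mention 4-OH-tamoxifen only for the cultures of the models, so an effect of that drug cannot be told apart from that of the alleles in any comparison with control.

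A lncRNA is a transcript that has no long open reading frame, and many are spliced and polyadenylated much like messenger RNAs. Some work as nuclear scaffolds, some carry small RNAs in their introns or exons, and some act, through their transcription, on the gene beside them. Many arise from the promoter of a protein-coding gene and run away from it on the opposite strand. Most are less abundant than messenger RNAs and many stay in the nucleus.

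The 262 genes were 144 lincRNAs, 97 antisense genes and 21 bidirectional promoter lncRNAs. Of the 8550 lncRNA genes, 3998 had no read in any library, and another 4 reached 2 CPM but lie on X or Y. The expressed lncRNAs were mostly close to the lower limit: 160 lay between 2 and 5 CPM, 53 between 5 and 10, 42 between 10 and 100, and 7 above. The genes just inside the limit were Gm47950 and Gm16172, both at 2.01 CPM, and those just outside were Gm19619 and A930038B10Rik, both at 1.99 CPM. Per unit of length their median was 2.09 FPKM (counts per length of the gene and per library size), against 7.79 FPKM for the 10986 protein-coding genes that met the same limit, and their median gene length was 2361 bases against 4412. All 262 passed the filter on low counts in each comparison. A read was found in all 16 libraries for 261 of them, and 63 had a mean under 2 CPM in at least 1 group.

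By position, 50 started within 2000 bases of a protein-coding gene that runs the other way (divergent), 81 overlapped their nearest protein-coding gene on the opposite strand, 8 overlapped it on the same strand and 123 were separate from it. Strand marking and the strand setting of the read counter are not given in the sources used here. For 120 lncRNAs the span from start to end overlaps that of a protein-coding gene on the opposite strand. Reads from a stretch that exons of both genes share therefore may not be told apart. Overlap of exons was not counted. Of the 262, 182 matched a RefSeq gene, of which 169 are lncRNAs there, 9 are protein-coding, 3 are pseudogenes and 1 is a transcribed pseudogene.

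Sequences are shown for the members on which the small RNA and neighbor results turn. The first are the mature microRNAs cut from Mir17hg, the only member on the list of microRNA host RNAs, because its change is a change in the transcript that carries them. They are written 5′ to 3′ from RefSeq (GRCm38.p6, chromosome 14, plus strand), with the seed, bases 2 to 8, in capitals.
mmu-miR-17-5p: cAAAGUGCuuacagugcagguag
mmu-miR-20a-5p: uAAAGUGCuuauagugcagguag
mmu-miR-18a-5p: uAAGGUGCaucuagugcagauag
mmu-miR-19a-3p: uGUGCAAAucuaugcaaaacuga
mmu-miR-19b-3p: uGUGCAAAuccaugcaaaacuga
mmu-miR-92a-3p: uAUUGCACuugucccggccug
miR-17-5p and miR-20a-5p have the same seed, as do miR-19a-3p and miR-19b-3p, while miR-18a-5p and miR-92a-3p each have their own. Mature microRNAs were not measured in these polyadenylated libraries.

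The second are the start regions of the divergent pairs of which both the lncRNA and the protein-coding gene passed the test in both models, because in both of these pairs the neighbors moved in opposite directions, which was not general among divergent pairs. By the RefSeq starts, the first window holds those of both genes, 150 bases apart, and the second only that of the lncRNA, 291 bases from that of Ankrd11. Each window is 300 bases from RefSeq's GRCm38.p6, on the strand of the lncRNA, and capitals mark GGAATG.
2010320M18Rik and Pik3r2, chr8:70776612-70776911, plus strand: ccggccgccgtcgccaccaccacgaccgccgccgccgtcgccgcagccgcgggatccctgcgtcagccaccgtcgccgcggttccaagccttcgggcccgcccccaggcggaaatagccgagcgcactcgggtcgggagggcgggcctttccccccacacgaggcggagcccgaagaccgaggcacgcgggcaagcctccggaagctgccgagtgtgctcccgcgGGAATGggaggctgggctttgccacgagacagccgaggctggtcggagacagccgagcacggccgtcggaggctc
2810013P06Rik and Ankrd11, chr8:123042325-123042624, plus strand: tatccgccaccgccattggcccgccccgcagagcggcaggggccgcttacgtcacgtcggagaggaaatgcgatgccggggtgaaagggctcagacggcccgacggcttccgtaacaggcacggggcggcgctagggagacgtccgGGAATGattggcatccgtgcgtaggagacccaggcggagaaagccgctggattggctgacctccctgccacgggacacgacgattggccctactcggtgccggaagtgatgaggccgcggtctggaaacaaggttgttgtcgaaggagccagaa
The first window is 74.7% G and C with 43 CpG, and the second 65.0% with 32 CpG, against a median of 52.7% and 7 CpG over all 32851 windows of the RefSeq table. Over the 35 divergent members with a window, the medians were 68.0% and 30 CpG, and over the 86 separate members with one, 51.5% and 7 CpG. The motifs searched, on both strands, were TATAAA (in 13.6% of all 32851 windows, the box bound by TBP), CACGTG (E-box, 7.15%), TGANTCA (AP-1, 7.81%), GGAATG (TEAD, 14.7%), AAAGTCCA (HNF4, 1.25%), TTTATNG (CDX2, 10.9%), AGATAA (11.2%, bound by GATA factors), TGACNNNGC (NRF2, 12.4%) and TGACGTCA (cyclic AMP response element, 1.79%). The AP-1, NRF2 and cyclic AMP letters all begin with TGA, and a stretch can match the AP-1 and the NRF2 letters at once. Of the 9 motifs only GGAATG was found in these windows.

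Between 27804968 and 40101729 reads were counted per library. Mitochondrially encoded genes took 6.41% to 10.4% of counts in control and 4.16% to 6.63% in the MYO5BΔIEC cultures. They took 4.20% to 5.37% in the MYO5B(G519R) cultures and 3.79% to 6.11% in the Compound-1-treated cultures. The labels number the cultures of each group from 1 to 4. Control culture 1 stood apart from the other controls: counts over all genes differed from those of the others by a chi-square of 245 to 269 per gene, against 19.1 to 33.2 among the remaining 3 controls. Its sum over 15 enterocyte markers was 4956 TMM-scaled CPM (CPM after edgeR's scaling of library sizes), against 15316 to 19813 in the other controls, and its sum over 8 tuft cell markers was 68.6 against 20.9 to 27.0. The median coefficient of variation of the 262 lncRNAs was 24.9% over the 4 controls and 13.8% without control culture 1. In the other groups it was 22.2% (MYO5BΔIEC), 18.8% (MYO5B(G519R)) and 25.2% (Compound-1-treated). Several counts below moved when this culture was left out, and are given without it as well.

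Epithelial markers were present in every culture, and Sis, Lyz1, Fcgbp and Olfm4 had the highest mean over the 16 libraries among the enterocyte, Paneth, goblet and stem cell markers, with shares of the sums that differed between cultures. Of 8 fibroblast markers, Col3a1, Dcn and Lum had no read in any library and the sum of all 8 stayed between 0.607 and 2.23 CPM. The sum of 5 endothelial markers lay between 0.957 and 2.66 CPM and that of 5 smooth muscle markers between 0.224 and 1.42 CPM. The sum of 8 immune markers was 11.2 to 153 CPM. Cd74, which epithelial cells can also express, was its most abundant gene by group mean, although at 3.59 of 12.3 CPM and 5.28 of 11.2 CPM it was the smaller part in treated cultures 3 and 4. Of the tested fibroblast, endothelial, smooth muscle and immune markers, 1 immune gene rose in the MYO5BΔIEC cultures, 1 fibroblast and 1 endothelial gene rose and 1 fibroblast gene fell in the MYO5B(G519R) cultures, and none was called in the treated cultures.

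Pairs of groups were tested by the quasi-likelihood method of edgeR over every gene that reached 10 counts in 2 or more of the 8 libraries concerned, and a gene was called at an adjusted p under 0.05. The comparisons of MYO5BΔIEC, MYO5B(G519R) and treated enteroids with control all use the same 4 control cultures, so they are not independent of each other. Myo5b, the myosin motor that moves recycling endosomes along actin and the gene targeted here, was at 157, 221, 183 and 168 TMM-scaled CPM in the controls. It was at 138, 111, 167 and 101 in the MYO5BΔIEC cultures, 142, 157, 176 and 141 in the MYO5B(G519R) cultures, and 148, 108, 86.8 and 101 in the treated cultures. Both models overlapped the controls and the treated cultures lay below all of them. The log2 fold change of Myo5b was -0.55 ± 0.19 (SE, n = 4 and 4, edgeR adjusted p = 0.0503) in the MYO5BΔIEC cultures, -0.33 ± 0.14 (edgeR adjusted p = 0.109) in the MYO5B(G519R) cultures and -0.77 ± 0.19 (edgeR adjusted p = 0.0146) in the treated cultures against control. DESeq2 called Myo5b lower in the MYO5BΔIEC cultures (adjusted p = 0.0336) and not in the MYO5B(G519R) cultures (adjusted p = 0.126). After removal of the length trend described below, edgeR called it lower in both (adjusted p = 0.0128 and 0.028). Counts are per gene, so recombination of the floxed exons was not tested.

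The question of the comparisons with control is how the set of expressed lncRNAs differs in cultures of the MYO5B models. In MYO5BΔIEC enteroids 12 lncRNAs rose and 44 fell. That is 21.4% of the 262, against 27.4% of all 17951 genes tested. By direction, 4.58% of the lncRNAs rose against 13.5% of all genes, and 16.8% fell against 13.8%. In MYO5B(G519R) enteroids 14 rose and 37 fell, 19.5% of the lncRNAs against 26.8% of all 17829 genes tested, with 5.34% higher against 13.1% and 14.1% lower against 13.7%. In treated MYO5BΔIEC enteroids 14 rose and 50 fell against control, 24.4% against 29.4% of 17937 genes, with 5.34% higher against 15.7% and 19.1% lower against 13.7%. The limit of 2 CPM on the mean over all groups enters these counts. Of the rises, 7 of 12, 7 of 14 and 7 of 14 were in lncRNAs with a control mean under 2 CPM, and of the falls 4 of 44, 3 of 37 and 9 of 50 were in lncRNAs with a mean under 2 CPM in the other group. Calls among the lncRNAs were mostly falls, while calls over all genes were split nearly evenly. In cells measured in bulk, fewer cells of a type and less RNA per cell cannot be told apart.

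The median log2 fold change of the 262 lncRNAs was -0.12 in the MYO5BΔIEC cultures, -0.16 in the MYO5B(G519R) cultures and -0.20 in the treated cultures, against -0.01, -0.05 and -0.05 over all genes tested. Groups did not overlap at all for 58 lncRNAs in the MYO5BΔIEC cultures (16 higher, 42 lower), which is 22.1% of them against 26.5% of all genes, and for 50 in the MYO5B(G519R) cultures (19 higher, 31 lower), 19.1% against 27.1%. Protein-coding genes at 2 to 10 CPM, 1884 in number, give a comparison at a level like that of most lncRNAs. Of these, 16.5% rose and 11.4% fell in the MYO5BΔIEC cultures and 14.7% rose and 11.9% fell in the MYO5B(G519R) cultures, so the share that rose was above that of the lncRNAs in both.

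The excess of falls moved with gene length. Over all genes tested, the log2 fold change rose with gene length with a Spearman rho of 0.29 (17951 genes in MYO5BΔIEC), and over the 262 lncRNAs with a rho of 0.18; these are descriptions across genes of the same 8 libraries, which are not independent. Among the 131 lncRNAs under the median length, 4 rose and 28 fell in the MYO5BΔIEC cultures, and among the 131 at or above it, 8 rose and 16 fell. In MYO5B(G519R) these counts were 4 and 25 in the shorter and 10 and 12 in the longer. With the trend of expression on length removed from each library, 27 lncRNAs rose and 30 fell in the MYO5BΔIEC cultures, 20 rose and 24 fell in the MYO5B(G519R) cultures, and 26 rose and 38 fell in the treated cultures. These are 10.3%, 7.63% and 9.92% higher, against 13.7%, 13.8% and 16% of all genes, and 11.5%, 9.16% and 14.5% lower, against 13.1%, 13.7% and 13.8%. The share of calls that were rises went from 21.4% to 47.4%, from 27.5% to 45.5% and from 21.9% to 40.6%. The predominance of falls was thus smaller with the length trend removed. In the treated cultures falls still outnumbered rises among the lncRNAs, 38 to 26, while 2870 of all genes rose and 2469 fell. The source of the predominance was not tested. Of the lncRNAs first called, 37 of 56, 31 of 51 and 44 of 64 were also called in the same direction with the trend removed.

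**Figure D1:**
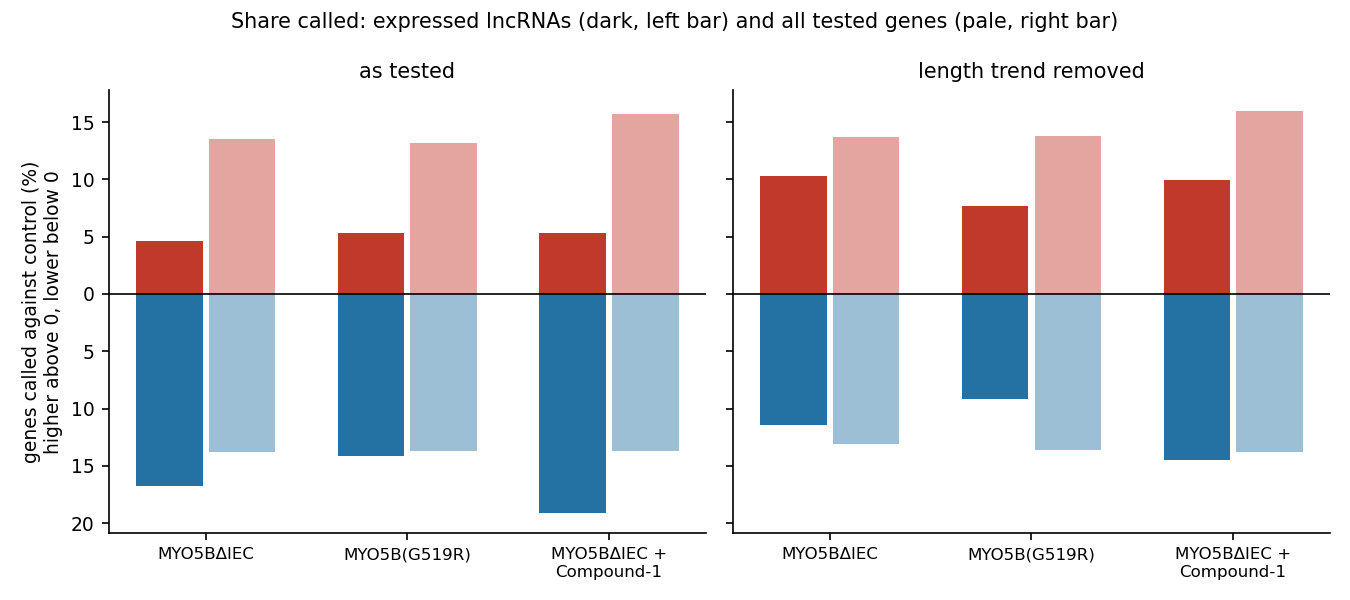
Percent of genes called against control (y axis, higher above 0 and lower below 0) for the 262 expressed lncRNAs (dark bars) and all genes tested (pale bars), as tested (left) and after removal of the length trend (right). As tested, 4.58% of lncRNAs rose and 16.8% fell in the MYO5BΔIEC cultures; with the trend removed the bars above and below 0 are closer in size, with 27 rises and 30 falls.

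Leaving out control culture 1 raised the number of calls. Without it, 94 lncRNAs were called in the MYO5BΔIEC cultures (25 higher, 69 lower), 78 in the MYO5B(G519R) cultures (22 higher, 56 lower) and 82 in the treated cultures (23 higher, 59 lower). Calls over all genes rose too, to 7474, 8146 and 7459. These were 42.0%, 46.2% and 42.1% of genes tested, against 35.9%, 29.8% and 31.3% of the lncRNAs. Of the lncRNAs first called, 55 of the 56, 49 of the 51 and 56 of the 64 were called again in the same direction without that culture. Of the lncRNAs called in the MYO5BΔIEC cultures, 10 that rose and 20 that fell were called whichever of the 8 libraries was left out. The same held for 6 that rose and 17 that fell in the MYO5B(G519R) cultures. The matching count over all genes was not made, so these numbers do not set the lncRNAs apart from other genes.

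The classes were counted separately. Of the 144 lincRNAs, 11 rose and 29 fell in the MYO5BΔIEC cultures, whereas of the 97 antisense genes 1 rose and 11 fell and of the 21 bidirectional promoter lncRNAs none rose and 4 fell. The lincRNA and antisense shares called were 27.8% and 12.4%, against 27.4% of all genes, and the difference between classes was not tested. In MYO5B(G519R) the counts were 13 and 26, 1 and 7, and 0 and 4, of which lincRNAs had 27.1% and antisense genes 8.25% called, against 26.8% of all genes. By position, 11 of the 123 separate lncRNAs rose and 26 fell in the MYO5BΔIEC cultures, while none of the 50 divergent ones rose and 9 fell. In MYO5B(G519R) 12 and 23 of the separate and 2 and 7 of the divergent lncRNAs rose and fell, and in the treated cultures 13 and 29, and 1 and 10. Called in all were 30.1%, 28.5% and 34.1% of the separate and 18%, 18% and 22% of the divergent lncRNAs, against 27.4%, 26.8% and 29.4% of all genes. Of the 81 that overlap their nearest protein-coding gene on the opposite strand, 9.88%, 7.41% and 12.3% were called. A difference between positions was not tested. Restricting to the 169 genes that RefSeq also has as lncRNAs left 9 higher and 30 lower in the MYO5BΔIEC cultures and 10 higher and 29 lower in the MYO5B(G519R) cultures. Over all genes tested, 13.5% rose and 13.8% fell in the first comparison and 13.1% and 13.7% in the second.

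**Figure D2:**
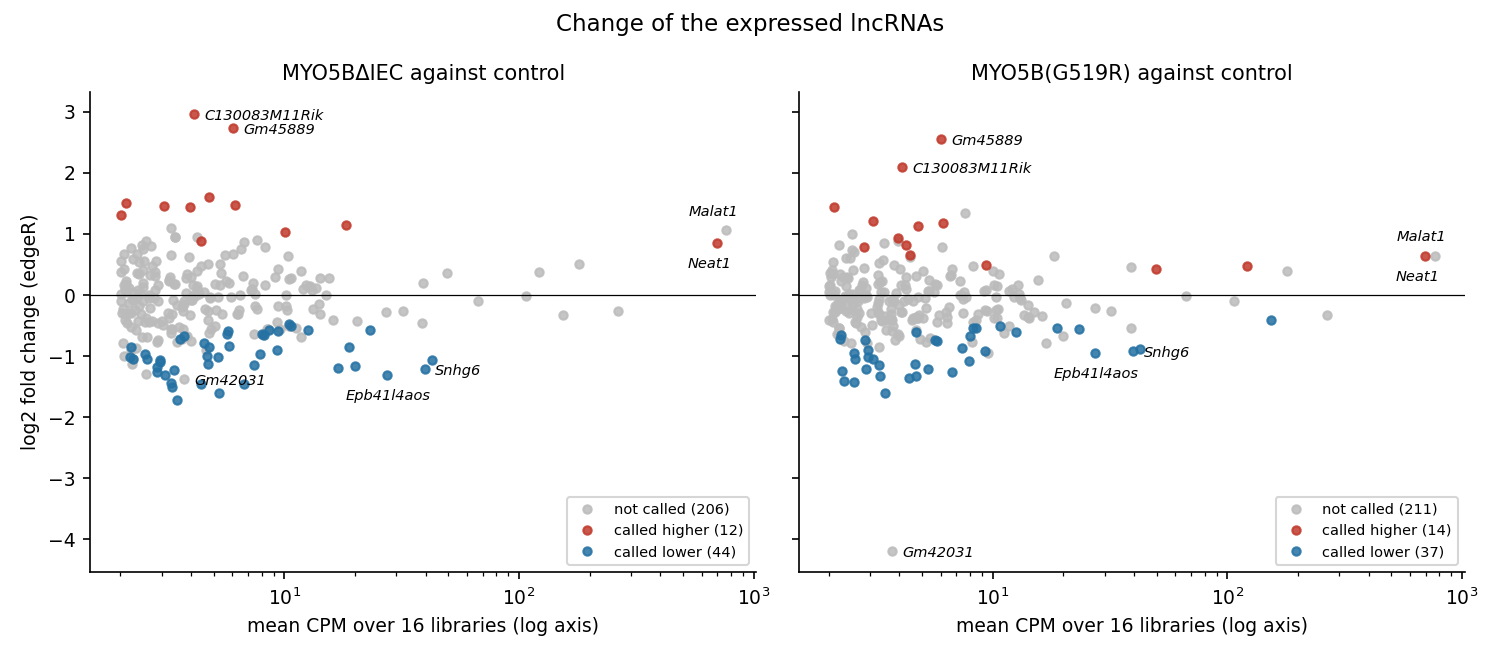
Log2 fold change against control (y axis) and mean CPM over the 16 libraries (x axis, log scale) of the 262 expressed lncRNAs in the MYO5BΔIEC cultures (left) and MYO5B(G519R) (right), colored by call. Most points called lower lie between 2 and 50 CPM, and the largest rises are C130083M11Rik and Gm45889.

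The largest rises among calls, apart from that of Mirt1, were in lncRNAs with a mean under 2 CPM in control. The TMM-scaled control means of C130083M11Rik, Gm45889, Lncenc1, AC125351.1, Gm9530 and Gm30262 were below 2 CPM, so these 6 are members only through the groups in which they were high, and their place among the rises is a description. Their p-values come from the fit over all genes tested, which did not use that limit. C130083M11Rik (ENSMUSG00000106464, a lincRNA at 52199984 to 52216434 on chromosome 5) was at 0.339, 1.28, 0.832 and 0.992 TMM-scaled CPM in control and at 2.97, 9.31, 9.48 and 6.29 in the MYO5BΔIEC cultures. It was at 2.57, 3.19, 6.92 and 3.02 in the MYO5B(G519R) cultures and at 3.59, 4.41, 6.06 and 2.61 in the treated cultures. Every culture of the other 3 groups lay above every control. Its log2 fold change was 2.97 ± 0.46 (edgeR adjusted p = 0.00229) in the MYO5BΔIEC cultures, 2.11 ± 0.45 (edgeR adjusted p = 0.00886) in the MYO5B(G519R) cultures and 2.22 ± 0.42 (edgeR adjusted p = 0.00607) in the treated cultures.

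Gm45889 (ENSMUSG00000109936, a lincRNA at 142283210 to 142290418 on chromosome 7) was at 0.833, 1.06, 1.97 and 1.31 CPM in control, 6.15, 9.43, 10.9 and 9.55 in the MYO5BΔIEC cultures, and 6.72, 8.46, 13.5 and 3.71 in the MYO5B(G519R) cultures. Neither model overlapped control, and the log2 fold change was 2.74 ± 0.31 (edgeR adjusted p = 0.0014) and 2.56 ± 0.42 (edgeR adjusted p = 0.00339). The treated cultures, at 5.25, 9.04, 2.00 and 4.22, spread more widely, with 1 of them barely above the highest control, and rose by 1.92 ± 0.45 (edgeR adjusted p = 0.0118).

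Lncenc1, first described in embryonic stem cells, was at 0.648, 1.28, 0.524 and 0.744 CPM in control, 2.63, 2.10, 2.86 and 1.90 in the MYO5BΔIEC cultures and 2.17, 2.53, 2.34 and 2.15 in the MYO5B(G519R) cultures. The MYO5B(G519R) cultures were close together and all were above control, with a log2 fold change of 1.44 ± 0.31 (edgeR adjusted p = 0.00935), against 1.51 ± 0.34 (edgeR adjusted p = 0.00944) in the MYO5BΔIEC cultures. Mirt1 was at 2.04, 3.14, 2.44 and 2.16 CPM in control, 11.2, 6.09, 6.58 and 4.29 in the MYO5BΔIEC cultures and 6.69, 7.51, 5.38 and 3.86 in the MYO5B(G519R) cultures. It rose by 1.47 ± 0.30 (edgeR adjusted p = 0.0065) and 1.18 ± 0.25 (edgeR adjusted p = 0.00921) on the log2 scale without overlap. AC125351.1 rose by 1.46 (edgeR adjusted p = 0.00271) and 1.22 (edgeR adjusted p = 0.00624), and Gm9530 by 1.44 (edgeR adjusted p = 0.00807) and 0.93 (edgeR adjusted p = 0.0427). Gm30262 rose by 1.60 (edgeR adjusted p = 0.00817) in the MYO5BΔIEC cultures and 1.12 (edgeR adjusted p = 0.0298) in the MYO5B(G519R) cultures. The MYO5B(G519R) calls of Gm9530 and Gm30262 were each lost when any of several libraries was left out, holding in 3 and 2 of 8 cases.

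Among the falls, 1700007L15Rik, which starts 109 bases from the zinc finger gene Zfp148 and runs away from it, was at 8.11, 8.01, 8.20 and 9.64 CPM in control. It was at 3.12, 2.22, 3.52 and 3.96 in the MYO5BΔIEC cultures, 3.54, 3.71, 2.65 and 4.21 in the MYO5B(G519R) cultures and 2.36, 4.85, 2.03 and 2.07 in the treated cultures. All 12 cultures of the other groups were below the lowest control, and the log2 fold change was -1.46 ± 0.22 (edgeR adjusted p = 0.00204), -1.35 ± 0.18 (edgeR adjusted p = 0.00204) and -1.65 ± 0.30 (edgeR adjusted p = 0.00549). A730020E08Rik, which overlaps the start of Ccser1 on the opposite strand, was at 6.32, 9.06, 11.8 and 12.9 CPM in control, 4.74, 3.56, 2.51 and 2.96 in the MYO5BΔIEC cultures and 5.01, 6.15, 2.37 and 4.89 in the MYO5B(G519R) cultures. It fell by 1.60 ± 0.28 (edgeR adjusted p = 0.00342) and 1.21 ± 0.31 (edgeR adjusted p = 0.0186) on the log2 scale without overlap.

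2310040G24Rik fell by 1.46 (edgeR adjusted p = 0.00168) in the MYO5BΔIEC cultures and 1.26 (edgeR adjusted p = 0.00639) in the MYO5B(G519R) cultures. 1810008I18Rik fell by 1.5 (edgeR adjusted p = 0.0198) and 1.34 (edgeR adjusted p = 0.00639), and AC129328.1 by 0.97 (edgeR adjusted p = 0.00448) and 1.07 (edgeR adjusted p = 0.00544). Gm6712 fell by 1.25 (edgeR adjusted p = 0.00406) and 1.21 (edgeR adjusted p = 0.00397) but did not pass with the length trend removed (edgeR adjusted p = 0.174 and 0.1), and RefSeq has it as protein-coding. Of the calls without overlap, 1500035N22Rik and AI427809 fell most in the treated cultures, by 2.20 (edgeR adjusted p = 0.00983) and 2.09 (edgeR adjusted p = 0.00541), and AI427809 did not pass in the MYO5BΔIEC cultures (-0.90, edgeR adjusted p = 0.0666).

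**Figure D3:**
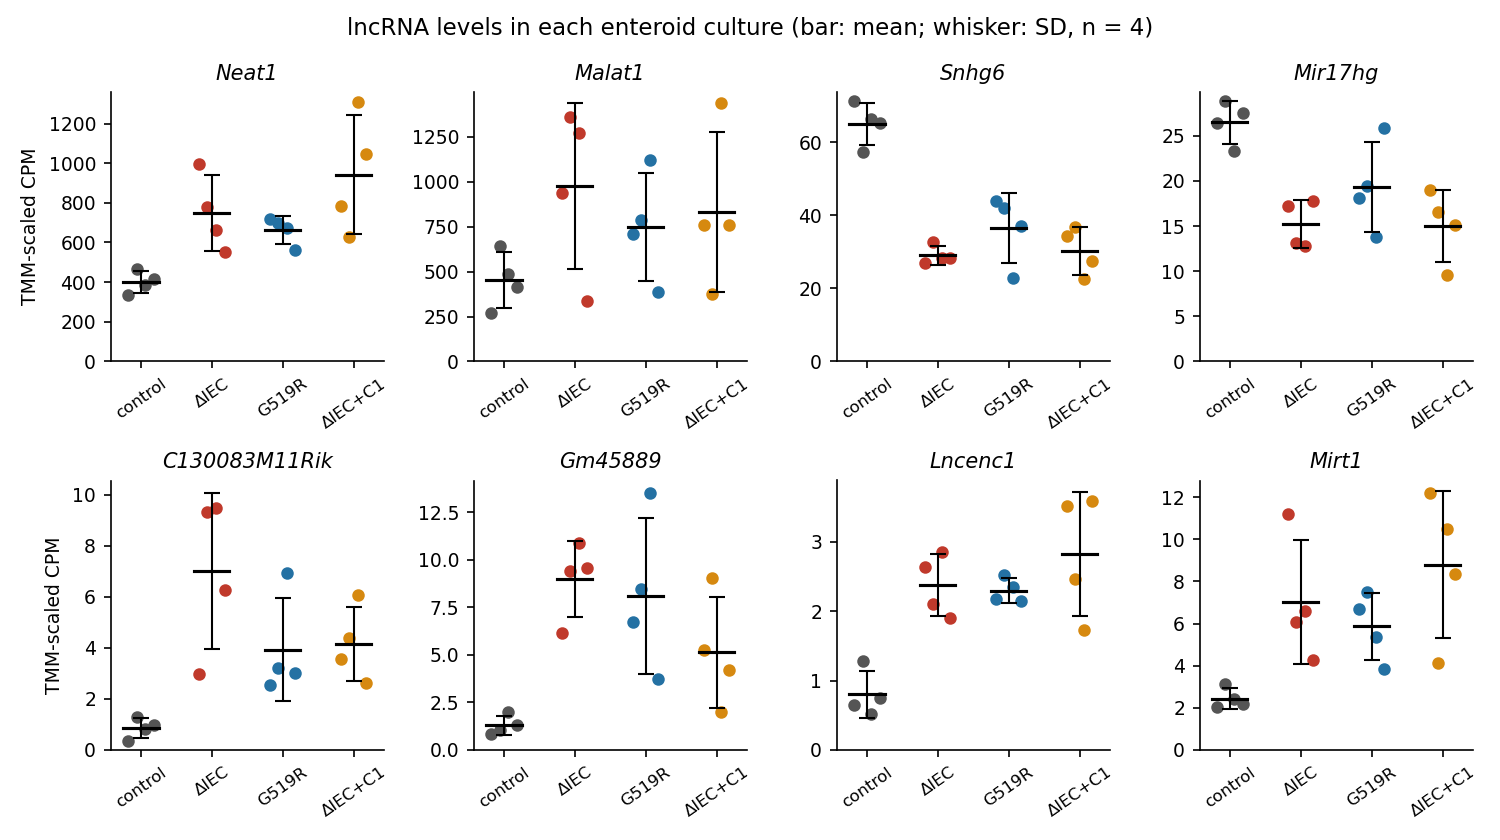
TMM-scaled CPM (y axis) of 8 expressed lncRNAs in each culture (points), with the mean (bar) and SD (whisker, n = 4) of control, MYO5BΔIEC (ΔIEC), MYO5B(G519R) (G519R) and Compound-1-treated MYO5BΔIEC (ΔIEC+C1) enteroids. For Neat1, Lncenc1, Mirt1, Gm45889 and C130083M11Rik all cultures of both models lie above all controls, and for Snhg6 all lie below; Malat1 overlaps in every group.

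By level per length, the most abundant members were Malat1 (107 FPKM over the 16 libraries), Gm26917 (78.9), Epb41l4aos (64.4), Gm10076 (52.5), Ndufb1-ps (37.1), Snhg6 (34.8), Neat1 (32.7) and Gm42047 (31.1). Malat1 is retained in nuclear speckles, where splicing factors gather. It was at 268, 641, 485 and 413 CPM in control, 934, 1360.1, 1272 and 337 in the MYO5BΔIEC cultures, and 707, 784, 1118 and 385 in the MYO5B(G519R) cultures. In each model 1 culture lay within the control range, and the log2 fold change of 1.06 ± 0.40 (edgeR adjusted p = 0.0716) and 0.65 ± 0.34 (edgeR adjusted p = 0.183) did not pass. DESeq2 called the rise in the MYO5BΔIEC cultures (adjusted p = 0.0203) and not that in the MYO5B(G519R) cultures (adjusted p = 0.109).

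Neat1, the RNA scaffold of paraspeckles, lies next to Malat1 on chromosome 19 at 5824708 to 5845478. It was at 333, 469, 383 and 414 CPM in control, 997, 781, 662 and 551 in the MYO5BΔIEC cultures, 720.1, 698, 674 and 562 in the MYO5B(G519R) cultures and 785, 629, 1310.1 and 1045 in the treated cultures. All 12 cultures were above the highest control. Neat1 rose by 0.85 ± 0.20 (edgeR adjusted p = 0.0123), 0.65 ± 0.15 (edgeR adjusted p = 0.0121) and 1.18 ± 0.24 (edgeR adjusted p = 0.00733) on the log2 scale, 1.80-, 1.57- and 2.27-fold. These calls held whichever library was left out. With the length trend removed the rise was 0.44 (edgeR adjusted p = 0.184), 0.33 (edgeR adjusted p = 0.207) and 0.78 (edgeR adjusted p = 0.028), and only the last passed.

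Malat1 and Neat1 carried much of the summed lncRNA signal. All 262 lncRNAs took 0.333%, 0.326%, 0.305% and 0.329% of counts in the controls, 0.433%, 0.511%, 0.459% and 0.342% in the MYO5BΔIEC cultures and 0.397%, 0.404%, 0.454% and 0.345% in the MYO5B(G519R) cultures. Malat1 and Neat1 together took 0.0611% to 0.101% in control, 0.0920% to 0.232% in the MYO5BΔIEC cultures and 0.0941% to 0.189% in the MYO5B(G519R) cultures. The other 260 took 0.225% to 0.272%, 0.235% to 0.278% and 0.249% to 0.266%, ranges that overlap.

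Of 21 proteins found in paraspeckles, 2 rose and 9 fell in the MYO5BΔIEC cultures, 3 rose and 2 fell in the MYO5B(G519R) cultures, and 3 rose and 6 fell in the treated cultures. Of all genes, 13.5%, 13.1% and 15.7% rose and 13.8%, 13.7% and 13.7% fell, and each list below is read against these shares. The 2 falls in the MYO5B(G519R) cultures became 7 without control culture 1 and 7 with the length trend removed, and the 6 in the treated cultures became 11 with the length trend removed. The most abundant per length, Hnrnpa1, fell by 0.84 ± 0.24 (edgeR adjusted p = 0.0238) in the MYO5BΔIEC cultures and was at -0.47 ± 0.23 (edgeR adjusted p = 0.152) in the MYO5B(G519R) cultures. Smarca4 rose by 0.87 (edgeR adjusted p = 0.00666) and 0.98 (edgeR adjusted p = 0.0037), and Matr3 fell by 0.77 (edgeR adjusted p = 0.00408) and 0.65 (edgeR adjusted p = 0.00336). Of 14 nuclear speckle proteins, 3 rose and 3 fell in the MYO5BΔIEC cultures, 4 rose and 3 fell in the MYO5B(G519R) cultures, and 2 rose and 3 fell in the treated cultures.

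The lncRNAs that host small nucleolar RNAs (snoRNAs) in their introns held no rise and many falls. Their spliced exons are removed by nonsense-mediated decay when translated, and the introns give the snoRNAs that guide modification of ribosomal RNA. Of 21 such RNAs listed, 19 are in the table, and 17 passed the filter in the MYO5BΔIEC cultures, where 10 fell and none rose. In MYO5B(G519R) 8 of 18 fell and in the treated cultures 9 of 18 fell, with none higher in either, against 13.8%, 13.7% and 13.7% of all genes lower. The median log2 fold change was -1.0, -0.68 and -0.84, against -0.01, -0.05 and -0.05 over all genes. Of the 5 among the expressed lncRNAs, 4, 2 and 4 fell, and the others have another biotype in the table. With the length trend removed 10, 4 and 9 of the whole list fell, with median log2 fold changes of -0.68, -0.35 and -0.67. Leaving out control culture 1 gave 11, 9 and 8 falls.

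Snhg6 (ENSMUSG00000098234, chromosome 1, 9941959 to 9944118) was at 71.4, 57.3, 66.3 and 65.3 CPM in control, 26.8, 32.8, 28.3 and 28.4 in the MYO5BΔIEC cultures, 44.1, 42.0, 22.8 and 37.2 in the MYO5B(G519R) cultures and 34.4, 36.7, 22.5 and 27.6 in the treated cultures. All 12 cultures were below the lowest control. It fell by 1.21 ± 0.13 (edgeR adjusted p = 0.00131) in the MYO5BΔIEC cultures, by 0.92 ± 0.19 (edgeR adjusted p = 0.00725) in the MYO5B(G519R) cultures and by 1.16 ± 0.17 (edgeR adjusted p = 0.00398) in the treated cultures. With the length trend removed it passed in the MYO5BΔIEC cultures (edgeR adjusted p = 0.0104) and treated enteroids (edgeR adjusted p = 0.0212) but not in the MYO5B(G519R) cultures (edgeR adjusted p = 0.063).

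Epb41l4aos was at 33.4, 44.2, 47.5 and 65.6 CPM in control, 21.6, 22.6, 16.4 and 19 in the MYO5BΔIEC cultures and 31.8, 28.6, 13.2 and 32.0 in the MYO5B(G519R) cultures. The groups did not overlap, and it fell by 1.32 ± 0.21 (edgeR adjusted p = 0.0024) and 0.94 ± 0.29 (edgeR adjusted p = 0.0356), the latter being lost in 6 of 8 cases when a library was left out and with the length trend removed (edgeR adjusted p = 0.366). Snhg12 fell by 1.19 (edgeR adjusted p = 0.0162) in the MYO5BΔIEC cultures and was at -0.79 (edgeR adjusted p = 0.0519) in the MYO5B(G519R) cultures. Snhg18 fell by 1.00 (edgeR adjusted p = 0.0178) and was at -0.57 (edgeR adjusted p = 0.172), and Snhg20 was at -0.42 (edgeR adjusted p = 0.0821) and -0.13 (edgeR adjusted p = 0.63). Outside the 262, Gas5, the most abundant per length of the hosts with another biotype, was at 312, 299.6, 279.6 and 303 CPM in control and 128, 122, 87.2 and 164 in the MYO5BΔIEC cultures. It fell by 1.31 ± 0.18 (edgeR adjusted p = 0.00168) in the MYO5BΔIEC cultures and by 1.00 ± 0.17 (edgeR adjusted p = 0.00394) in the MYO5B(G519R) cultures. Within the MYO5BΔIEC comparison the largest fall of the list was that of Snhg5, 1.45 ± 0.36 (edgeR adjusted p = 0.014).

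**Figure D4:**
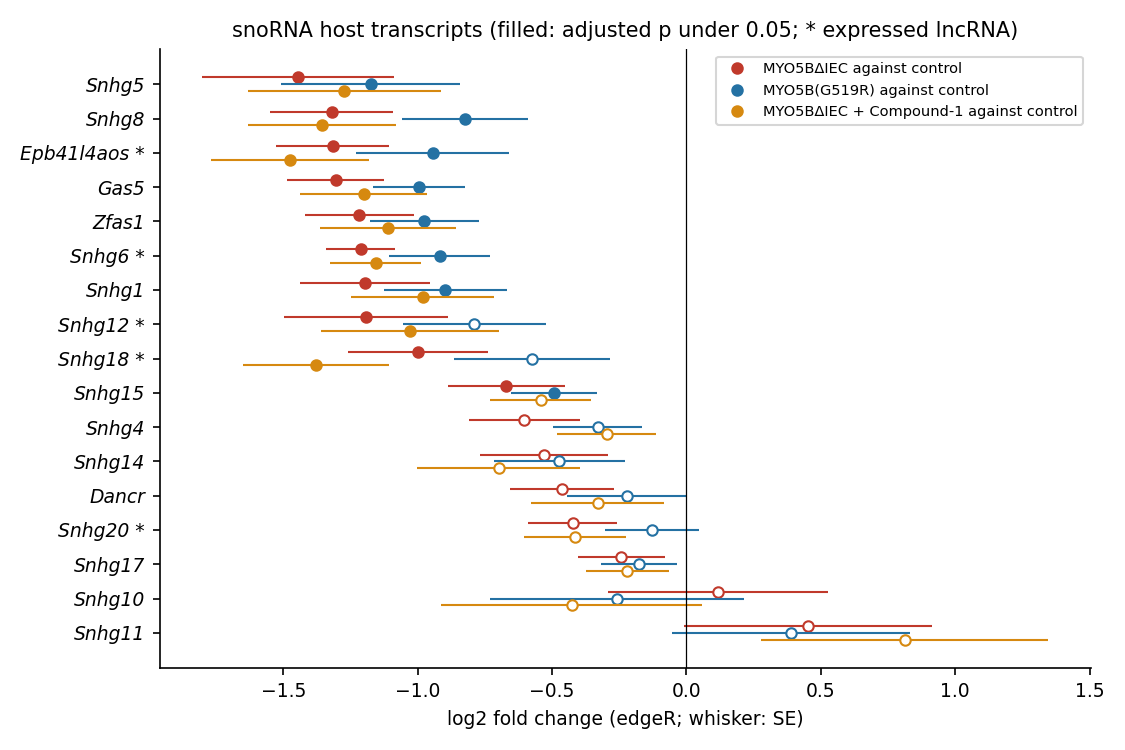
Log2 fold change (x axis, whisker SE) of the 17 snoRNA host RNAs that passed the filter in the MYO5BΔIEC cultures, in the 3 comparisons with control, with filled points for calls and an asterisk for the 5 that are among the 262 expressed lncRNAs. All filled points lie left of 0, and Snhg11 is on the right of 0 in all 3 with no call.

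Genes that act on these RNAs were counted alongside. Of 17 nuclear exosome genes, which trim and degrade nuclear RNA, 11 fell in the MYO5BΔIEC cultures, 8 in the MYO5B(G519R) cultures and 7 in the treated cultures, and none rose, against 13.8%, 13.7% and 13.7% of all genes lower. With control culture 1 left out the falls were 11, 10 and 10, and 1 exosome gene rose in the MYO5B(G519R) cultures. With the length trend removed 8, 8 and 7 fell. As first tested, C1d was at -0.84, -0.83 and -0.88 and Rbm7 at -0.83, -0.82 and -0.71 on the log2 scale. Of 16 nonsense-mediated decay factors, 4 rose and 2 fell, 3 rose and 2 fell, and 4 rose and 2 fell. Without control culture 1 these were 7 and 3, 8 and 4, and 8 and 3. Upf1, the central helicase of that pathway, rose by 0.77 (edgeR adjusted p = 0.0158), 0.91 (edgeR adjusted p = 0.00352) and 1.08 (edgeR adjusted p = 0.00489), and Magoh, a core part of the exon junction complex, fell by 1.22 (edgeR adjusted p = 0.00171), 0.91 (edgeR adjusted p = 0.00454) and 1.12 (edgeR adjusted p = 0.00652). Whether these genes had a part in the lncRNA differences was not tested.

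Of 10 proliferation markers, 5 fell and none rose in the MYO5BΔIEC cultures, 4 fell and 1 rose in the MYO5B(G519R) cultures, and 4 fell and none rose in the treated cultures, with Top2a as the largest part of the sum. Their summed level was 2056, 2287, 2359 and 2192 CPM in control, 1770.5, 1481, 1330 and 1875 in the MYO5BΔIEC cultures, and 2163, 2134, 1697 and 2250.4 in the MYO5B(G519R) cultures. The sum of 7 stem cell markers was 3913, 4909, 5345 and 7106 CPM in control, 3231, 2169, 1973 and 2924 in the MYO5BΔIEC cultures and 3439, 3279, 2349 and 3795 in the MYO5B(G519R) cultures. The summed stem cell markers were thus lower than in every control in both models. The most abundant of them, Olfm4, was at 1544, 3611, 3796 and 5461 CPM in control, 1320, 403, 313 and 1107 in the MYO5BΔIEC cultures and 1312, 1224, 581 and 1860 in the MYO5B(G519R) cultures, so its share of the sum differed between libraries. By the test, 1 of the 7 rose and 1 fell in each, or 2 and 4 rose and 1 fell without control culture 1. The sum of 6 neural and glial markers was 5.30 to 8.91 CPM in control, 13.6 to 19 in the MYO5BΔIEC cultures and 10.1 to 14.3 in the MYO5B(G519R) cultures. Ret, which the epithelium can also express, had the highest mean among them. Of the 4 neural and glial markers tested, 2 rose and none fell in the MYO5BΔIEC, the MYO5B(G519R) and the treated cultures alike. The largest log2 fold changes of these markers were 2.35, 1.68 and 2.82. Of the 15 enterocyte markers 3 rose in the MYO5BΔIEC cultures, 2 rose and 2 fell in the MYO5B(G519R) cultures, and 3 rose and 4 fell in the treated cultures. Of 8 goblet markers 2 rose and 2 fell, 2 rose and 3 fell, and 2 rose and 2 fell, while of 8 Paneth markers 2, 2 and 1 fell. Without control culture 1, 3, 6 and 5 enterocyte and 5, 7 and 4 Paneth markers fell, and with the length trend removed no Paneth marker fell. Of 9 enteroendocrine markers 2, 1 and 1 rose, and of 6 tuft markers tested 1, 1 and 4 fell (1, 0 and 3 without control culture 1). The part of these cell types in the lncRNA differences was not tested.

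Mir17hg (ENSMUSG00000089726, chromosome 14, 115042879 to 115046727), the host of the microRNAs shown above and a target of Myc and E2F factors in dividing cells, was at 26.4, 28.8, 23.3 and 27.6 CPM in control. It was at 17.2, 13.1, 12.8 and 17.8 in the MYO5BΔIEC cultures, 18.1, 19.4, 13.8 and 25.8 in the MYO5B(G519R) cultures and 19, 16.5, 9.53 and 15.1 in the treated cultures. MYO5BΔIEC and treated cultures lay below all controls, and 1 MYO5B(G519R) culture was within their range. Mir17hg fell by 0.85 ± 0.16 (edgeR adjusted p = 0.0041), 0.55 ± 0.18 (edgeR adjusted p = 0.0458) and 0.87 ± 0.21 (edgeR adjusted p = 0.0123), the second being called in only 2 of 8 cases when a library was left out. With the length trend removed the fall in the MYO5BΔIEC cultures was 0.84 (edgeR adjusted p = 0.00297).

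Of 6 microRNA host RNAs tested in the MYO5BΔIEC cultures, 1 rose (H19) and 1 fell (Mir17hg), and the same 2 were called among the 5 tested in the MYO5B(G519R) cultures. H19 passed the filter on low counts only through the cultures in which it was high, so its call is a description. Without control culture 1, and also with the length trend removed, 1 rose and 2 fell in each model. Of 8 conserved regulatory RNAs, none rose and 2 fell in the MYO5BΔIEC cultures, and 1 rose and 1 fell in the MYO5B(G519R) cultures and in the treated cultures. Without control culture 1, 2 of the 8 rose in each of the 3 comparisons. 2900097C17Rik, which RefSeq names Norad and which binds PUMILIO proteins, was at 118, 80.8, 82.5 and 86.1 CPM in control and 133, 128, 138 and 139 in the MYO5B(G519R) cultures, where it rose by 0.47 ± 0.13 (edgeR adjusted p = 0.0263). In MYO5BΔIEC it was at 127, 119, 114 and 132, a log2 fold change of 0.37 ± 0.14 (edgeR adjusted p = 0.0758), and control culture 1 was the highest of the controls. Tug1 was at -0.01 ± 0.20 (edgeR adjusted p = 0.974) and -0.09 ± 0.18 (edgeR adjusted p = 0.753), signs that turned without control culture 1 (0.21 and 0.17). Pvt1, beside Myc, was at 0.79 ± 0.32 (edgeR adjusted p = 0.0907) and 0.48 ± 0.27 (edgeR adjusted p = 0.212). Lockd, beside the cell cycle inhibitor gene Cdkn1b, fell by 1.22 ± 0.39 (edgeR adjusted p = 0.0403) in the MYO5BΔIEC cultures and was at -0.43 ± 0.37 (edgeR adjusted p = 0.426) in the MYO5B(G519R) cultures.

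Of the most abundant members not yet described, Gm26917, which shares sequence with ribosomal RNA so that its reads may not be its own, was at -0.26 ± 0.31 (edgeR adjusted p = 0.578) and -0.33 ± 0.25 (edgeR adjusted p = 0.363) in the models, and neither it nor the other tested locus of that kind was called. Gm42047 was at 0.51 ± 0.37 (edgeR adjusted p = 0.346) and 0.40 ± 0.45 (edgeR adjusted p = 0.557). Gm10076, a pseudogene in RefSeq, fell by 1.17 ± 0.38 (edgeR adjusted p = 0.0437) in the MYO5BΔIEC cultures, a call that held in 1 of 8 cases when a library was left out. Ndufb1-ps, which RefSeq has as the protein-coding gene of a respiratory complex I subunit, fell by 1.07 ± 0.23 (edgeR adjusted p = 0.00722) and 0.89 ± 0.24 (edgeR adjusted p = 0.0214).

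Each lncRNA was read beside its nearest protein-coding gene. This gene need not be close, with a median start distance of 24404 bases in the 100 separate pairs of the MYO5BΔIEC comparison. Of 235 pairs with both genes tested in the MYO5BΔIEC cultures, 132 (56.2%) had the same sign, and of 237 in the MYO5B(G519R) cultures, 139 did (58.6%); both genes of a pair come from the same libraries. In the MYO5BΔIEC cultures 52 called lncRNAs had a tested neighbor. The neighbor was called in the same direction for 16, in the opposite for 7 and not called for 29. In the MYO5B(G519R) cultures these counts were 19, 6 and 22 of 47. Of the 10986 protein-coding genes at 2 CPM or more, 36.5% and 36.6% were called in either direction, against 27.4% and 26.8% of all genes tested. Whether neighbors of called lncRNAs were called more often than other protein-coding genes was not tested. Separate pairs gave 13 of the 16 and 16 of the 19 neighbors called in the same direction. Among the 49 divergent pairs in the MYO5BΔIEC cultures, 24 had the same sign, and of 9 called lncRNAs none had a neighbor called in the same direction and 2 had one called in the opposite direction. In MYO5B(G519R) this was 2 and 2 of 9, and in the treated cultures 1 and 3 of 11.

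In both pairs of which the start windows are shown above, the lncRNA fell and the protein-coding gene rose. 2010320M18Rik was at 9.5, 13.0, 12.9 and 11.8 CPM in control, 5.57, 6.48, 4.04 and 6.01 in the MYO5BΔIEC cultures and 6.54, 5.69, 5.68 and 9.47 in the MYO5B(G519R) cultures. Pik3r2, a regulatory subunit of phosphoinositide 3-kinase whose start is 102 bases away in the count table, was at 45.7, 50.9, 51.3 and 49.3 in control, 89.0, 85.4, 61.1 and 78.4 in the MYO5BΔIEC cultures and 85.6, 84.5, 84.9 and 77.2 in the MYO5B(G519R) cultures. All model cultures of the lncRNA lay below control and all of Pik3r2 lay above. 2010320M18Rik fell by 1.15 ± 0.20 (edgeR adjusted p = 0.00335) and 0.87 ± 0.20 (edgeR adjusted p = 0.0123) on the log2 scale, and Pik3r2 rose by 0.62 ± 0.14 (edgeR adjusted p = 0.0098) and 0.67 ± 0.10 (edgeR adjusted p = 0.00246).

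2810013P06Rik was at 16.4, 15.3, 14.8 and 20.3 CPM in control, 11.5, 11.8, 10.9 and 12.5 in the MYO5BΔIEC cultures and 12.9, 11.1, 11.7 and 10.9 in the MYO5B(G519R) cultures. Ankrd11, a chromatin regulator whose start is 189 bases away in the count table, was at 179.6, 128, 126 and 113 in control, 269.9, 255, 235 and 217 in the MYO5BΔIEC cultures and 244, 250.2, 272 and 216 in the MYO5B(G519R) cultures. Neither gene overlapped control in either model. The lncRNA fell by 0.57 ± 0.16 (edgeR adjusted p = 0.021) and 0.61 ± 0.14 (edgeR adjusted p = 0.0137), and Ankrd11 rose by 0.79 ± 0.16 (edgeR adjusted p = 0.00606) and 0.77 ± 0.15 (edgeR adjusted p = 0.00683). The fall in the MYO5BΔIEC cultures did not pass with the length trend removed (edgeR adjusted p = 0.0814) and was kept in 5 of 8 cases when a library was left out.

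Hnf4aos lies on the other strand from Hnf4a, which encodes a nuclear receptor of the gut epithelium. It was at 1.85, 4.61, 5.89 and 5.00 CPM in control, 2.42, 2.13, 4.70 and 0.635 in the MYO5BΔIEC cultures, 2.26, 2.19, 1.90 and 0.530 in the MYO5B(G519R) cultures and 2.09, 0.702, 0.513 and 0.747 in the treated cultures. Control culture 1 was the lowest control and overlapped all 3 groups, and the fall reached 1.42 ± 0.47 (edgeR adjusted p = 0.0484) in the MYO5B(G519R) cultures and 2.16 ± 0.51 (edgeR adjusted p = 0.0118) in the treated cultures. Hnf4a rose by 0.39 ± 0.11 (edgeR adjusted p = 0.0268) and 0.51 ± 0.14 (edgeR adjusted p = 0.0227) in the same comparisons. With the length trend removed, Hnf4aos passed only in the treated cultures (edgeR adjusted p = 0.0348).

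Airn, which silences Igf2r in cis on the paternal chromosome in many tissues, was at 6.26, 9.06, 6.63 and 6.09 CPM in control, 7.12, 9.77, 12.3 and 4.08 in the MYO5BΔIEC cultures and 7.51, 8.06, 9.24 and 4.8 in the MYO5B(G519R) cultures. The groups overlapped, and the log2 fold change was 0.20 ± 0.31 (edgeR adjusted p = 0.683) and -0.00 ± 0.23 (edgeR adjusted p = 0.994). Igf2r, the receptor that carries lysosomal enzymes and which Airn overlaps on the opposite strand, rose by 1.5 ± 0.20 (edgeR adjusted p = 0.00166) and 1.26 ± 0.20 (edgeR adjusted p = 0.0032). Of 7 imprinted RNAs tested in the MYO5BΔIEC cultures 2 rose, and of 6 tested in the MYO5B(G519R) cultures 1 rose and in the treated cultures 2 rose and 1 fell. The rises in both models include H19, for which the limit given above holds. Without control culture 1, 2 rose and 1 fell in each comparison. The fall in the treated cultures was that of Kcnq1ot1, at -1.69 ± 0.49 (edgeR adjusted p = 0.0261), which was called in 3 of 8 cases when a library was left out.

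Some neighbors rose together. Mirt1 rose with Dusp5, an ERK phosphatase whose start is 64313 bases away (0.85 and 0.71), AC125351.1 with the kinase gene Map3k9 (1.10 and 1.00), Gm9530 with the immediate early gene Ier5 (0.72 and 0.64), and Neat1 with Frmd8 (1.05 and 0.86), all 4 neighbors past the threshold in both models. A730020E08Rik and Ccser1 both fell, the latter by 0.57 in each. Enc1 rose by 0.95 (edgeR adjusted p = 0.0113) in the MYO5BΔIEC cultures near Lncenc1, and Epb41l4a rose by 1.17 (edgeR adjusted p = 0.03) and 0.88 (edgeR adjusted p = 0.0376) where Epb41l4aos fell. Near the other large changes, Phlda1 rose by 0.80 (edgeR adjusted p = 0.0135) and 0.75 (edgeR adjusted p = 0.0183) beside Gm30262, Riok2 fell by 0.76 (edgeR adjusted p = 0.00362) and 0.73 (edgeR adjusted p = 0.00321) beside Gm6712, Zfp97 fell by 0.80 (edgeR adjusted p = 0.037) and 0.96 (edgeR adjusted p = 0.00913) beside AC129328.1, and Zfp148 fell by 0.36 (edgeR adjusted p = 0.0379) in the MYO5B(G519R) cultures. Dhx15, Pcsk6 and Pcbp1, the neighbors of C130083M11Rik, 1810008I18Rik and 2310040G24Rik, were not called in either model, and Gm4559, nearest to Gm45889, had no read.

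**Figure D5:**
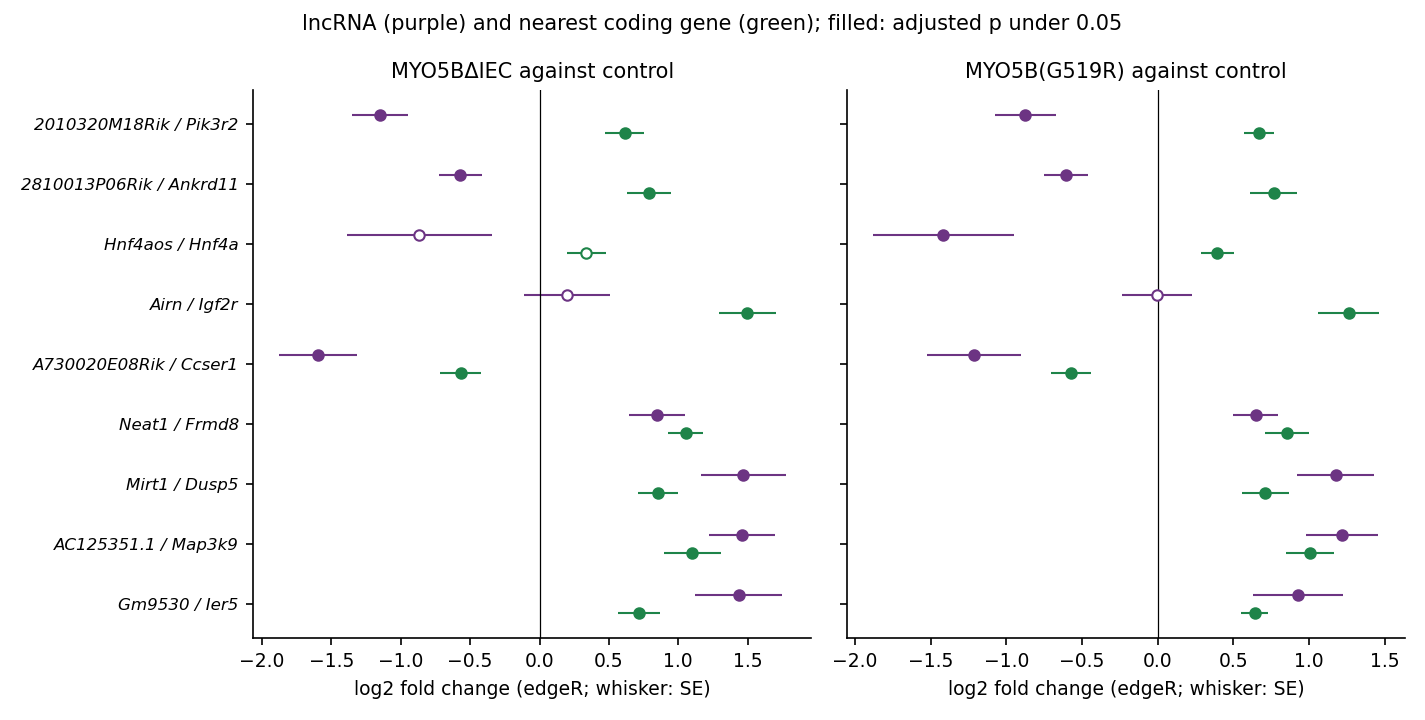
Log2 fold change (x axis, whisker SE) of 9 lncRNAs (purple) and of their nearest protein-coding gene (green) in the MYO5BΔIEC cultures (left) and MYO5B(G519R) (right), filled where the edgeR adjusted p was under 0.05. Pairs were picked after their values were seen: the upper 3 rows have the lncRNA lower and the coding gene higher, and the lowest 4 have both higher.

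Compound-1 treatment was compared with vehicle in the MYO5BΔIEC cultures to ask whether it moves the lncRNAs at all. No lncRNA passed, against 0.0% of 18037 genes called by edgeR, and 17 of the 262 (6.49%) and 1355 of all genes had an unadjusted p under 0.05. With DESeq2 no lncRNA and 91 genes passed. The log2 fold changes of the 262 ran from -1.42 to 1.02 with a median of -0.08, against 0.00 over all genes. The lowest unadjusted p belonged to Kcnq1ot1, an imprinted antisense transcript of the Kcnq1 domain, at 9.11, 15, 12.7 and 5.83 CPM with vehicle and 5.74, 4.05, 6.18 and 3.36 with Compound-1. The groups overlap, and its log2 fold change was -1.17 ± 0.32 (edgeR adjusted p = 0.532). AI427809, at 3.64, 4.63, 7.0 and 3.20 with vehicle and 3.35, 1.88, 1.59 and 1.29 with the compound, followed (-1.22 ± 0.37, edgeR adjusted p = 0.532), then Gm2895 (-0.95 ± 0.32, edgeR adjusted p = 0.56). Neat1 differed by 0.31 ± 0.24 and Snhg6 by 0.03 ± 0.17. These differences did not exceed the spread between cultures after adjustment, which does not show that treated and untreated enteroids were alike.

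The models were compared directly to ask whether the MYO5B(G519R) cultures differ from the MYO5BΔIEC cultures. No lncRNA and 1 gene (0.00557% of 17943) passed, with 11 of the 262 and 772 of all genes at an unadjusted p under 0.05 and no lncRNA by DESeq2. The lncRNA with the lowest p, 4933404O12Rik, was at 15.3, 12.2, 14.5 and 13.9 CPM in the MYO5BΔIEC cultures and 9.01, 9.95, 9.76 and 7.01 in the MYO5B(G519R) cultures. The groups did not overlap (-0.67 ± 0.16, edgeR adjusted p = 0.838), while control culture 1, at 16.2, was above all and the other controls were at 7.11, 6.01 and 5.24. Arhgap27os3 (-0.95 ± 0.33, edgeR adjusted p = 0.838) and Gm14286 (-0.70 ± 0.27, edgeR adjusted p = 0.838) followed.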

How the data were processed

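Polyadenylated RNA of 16 enteroid cultures was sequenced for the authors by Novogene. The deposited table holds raw counts per gene, with a second table of FPKM made from the counts. The submitters' processing notes name STAR 2.5, TopHat, HTSeq 0.6.1 and DESeq2 with GRCm38. HTSeq's strand setting is not given in the sources used here.

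Tests on counts used edgeR 4.0.16 in R 4.3.3 (TMM, quasi-likelihood test, genes reaching 10 counts in 2 or more of 8 libraries, Benjamini-Hochberg adjustment over all genes, threshold 0.05), 4 cultures against 4, and levels are TMM-scaled CPM. The script was tested on simulated data. Alternatives were DESeq2 1.42.0, other size factors, filters and fits, limma 3.58.1 on log2(FPKM + 1) and log2(FPKM + 0.1), an offset for gene length, the replicate block and each library left out. Cultures, not genes, are the replicates, and the p-values set the difference between groups against the spread between cultures. The nearest protein-coding gene was taken by start site, within 2000 bases for divergent pairs. Coordinates, promoters and microRNAs are those of RefSeq GRCm38.p6 and of the count table.

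The members, gene lists, named genes and figures were chosen with earlier results of these data known. Genes are named by rule: in each comparison the 6 largest rises and 6 largest falls among calls whose groups did not overlap, or the 3 lowest p where fewer than 3 passed; the 8 highest by FPKM; members of the lists (nuclear body, snoRNA host, microRNA host, imprinted, conserved regulatory, opposite-strand (counts not reported here) and ribosomal RNA-like RNAs, paraspeckle and speckle proteins, nonsense-mediated decay, exosome and cell type markers); and their nearest coding genes.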

Additional observations from a re-analysis of the deposited data

Results flagged for a closer look

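Within a group of 4 cultures, a culture was noted when its gap to the nearest other, divided by the range, was above Dixon's 95% critical value. Of 164 combinations of gene and group 12 (7.32%) were past that value, and chance gives about 1 in 20, so single cases carry little weight. Control culture 1 was high for 4933404O12Rik (16.2 TMM-scaled CPM), Gm14286 (3.89), Gm42047 (259), 2900097C17Rik (118) and Tug1 (152). Control culture 4 was high for 1700007L15Rik (9.64). Treated culture 2 was high for 1810008I18Rik (5.33), 1700007L15Rik (4.85), Epb41l4aos (29.7) and Snhg20 (25.7), and treated culture 1 for Hnf4aos (2.09). MYO5B(G519R) culture 3 was high for C130083M11Rik (6.92) and for the share of counts taken by the lncRNAs other than Malat1 and Neat1 (0.266%).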

How the results depend on the processing

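The number of expressed lncRNAs was 482 with a limit of 1 CPM and 131 with 4 CPM. Leaving out 1 library at a time, 33 to 94 lncRNAs were called in MYO5BΔIEC against 56 (94 without control culture 1, 33 without control culture 4, 34 without MYO5BΔIEC culture 2). In MYO5B(G519R) 27 to 78 were called against 51: 78 without control culture 1, 33, 27 and 27 without control cultures 2, 3 and 4, and 27, 29 and 30 without MYO5B(G519R) cultures 1, 2 and 3. In treated enteroids against control 35 to 82 were called against 64, with 40, 35 and 36 without control cultures 3 and 4 and treated culture 4. These counts are 12.6% to 35.9%, 10.3% to 29.8% and 13.4% to 31.3% of the lncRNAs. Of all genes tested, 16.7% to 42.0%, 16.3% to 46.2% and 16.7% to 42.1% were called. No lncRNA was called in the other 2 comparisons whichever library was left out. The cause was not tested. DESeq2 called 79, 61 and 89 lncRNAs in the 3 comparisons with control, and 5956, 5783 and 6276 of all genes.

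The replicate block gave 39, 38 and 53 lncRNAs called in the comparisons with control (14.9%, 14.5% and 20.2%, against 20.3%, 20.7% and 24.5% of all genes) and 0 in the other 2. The labels give the groups the same numbers, but same-numbered pairs did not have r over 0.1 throughout in any comparison (-0.25, 0.19, -0.15 and 0.09 for MYO5BΔIEC and control). For MYO5B(G519R) and MYO5BΔIEC r was positive in all 4 pairs, at 0.18, 0.07, 0.56 and 0.62. Unlike-numbered pairs of these groups ran from -0.51 to 0.33, and the labels do not tie the numbers to mice. These groups come from mice of different genotypes, so cultures with the same number are not from the same mouse. Whether the numbers mark another shared step is not given. In that comparison the block took the lncRNAs at an unadjusted p under 0.05 from 11 to 27, and all genes from 772 to 2532. No call of a named lncRNA reversed its direction. Near 0 and not called, Tug1 turned in both models without control culture 1, and Airn in MYO5B(G519R) under DESeq2 (0.03). The 160 lncRNAs at 2 to 5 CPM rest on the fewest reads. Between controls the median CV of protein-coding genes was 25.4% at 2 to 10 CPM and 17.5% over all at 2 CPM or more.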

Other observations

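H19, an imprinted lncRNA that hosts a microRNA and is active in fetal tissue, was below the level limit and so not among the 262. It was at 0, 0.224, 0.0308 and 0.0709 TMM-scaled CPM in control, 1.22, 3.99, 2.79 and 2.27 in the MYO5BΔIEC cultures, 1.34, 0.882, 3.17 and 1.28 in the MYO5B(G519R) cultures and 1.06, 2.62, 2.59 and 0.747 in treated enteroids, so that every culture of the other groups was above every control. The fitted log2 fold change was 4.87 ± 0.72 (edgeR adjusted p = 0.00194) and 4.23 ± 0.77 (edgeR adjusted p = 0.00477) in the models, and it depends on the prior count since control is close to 0.

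Gm42031, noticed after its values were seen, was at 0.586, 0.160, 1.11 and 29.6 CPM in control, 11.6, 0.548, 0.488 and 0.121 in the MYO5BΔIEC cultures, and 14.5, 0.128, 0.782 and 0.488 in treated enteroids, while all 4 MYO5B(G519R) cultures lay between 0.335 and 0.561. A single culture is high in each of 3 groups. The log2 fold change in MYO5B(G519R), -4.19 ± 1.41 (edgeR adjusted p = 0.0517), did not pass.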
